A study of Mus musculus with 14 samples.

Results

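The 31 genes described here are those of glycolysis and of the cell's response to low oxygen, and they were followed through the bladder and urethral epithelium of mouse embryos. They were taken by gene symbol from the count tables, and 31 of 31 were found among the 55228 genes measured. They comprise 2 glucose transporters, 9 enzymes from hexokinase to triose phosphate, 2 PFKFB enzymes, 6 enzymes from triose phosphate to pyruvate, 5 genes of lactate, monocarboxylate and pyruvate handling, 3 genes of oxygen sensing and 4 further hypoxia-inducible genes. RNA was sequenced from 3 libraries of E18.5 bladder, 4 of E14.5 bladder, 3 of E18.5 urethra and 4 of E14.5 urethra, where E is the day of embryonic development. The embryos were untreated wild-type CD-1 females, an outbred strain, and each library pooled the tissue of the females of a litter. Both stages were processed alike per the labels: cold trypsin loosened the tissue and forceps then pulled epithelium from mesenchyme, so a library can still hold cells of the other layer. The counts of the E14.5 and E18.5 libraries were deposited in separate tables, and stage cannot be told apart from anything else that differed between those sets.

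Glycolysis splits glucose into pyruvate in the cytosol. Glucose enters through facilitative transporters, hexokinases and phosphofructokinases commit it to the pathway, and the lower enzymes recover ATP and reduce NAD to NADH, which lactate dehydrogenase reoxidises. HIF-1 alpha, encoded by Hif1a, is hydroxylated by the prolyl hydroxylases Egln1 and Egln3 when oxygen is present and is then destroyed. In low oxygen it persists, pairs with ARNT and binds the core letters ACGTG or GCGTG near many glycolytic genes as well as near Vegfa, Bnip3, Ndrg1, Ankrd37 and Egln3. Hif1a itself is regulated mainly at the protein level, so its RNA is not a measure of HIF activity.

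Library totals ran from 21101269 to 36810672 counts. Levels are given as CPM, read counts brought to a common library total, with the total scaled by the trimmed mean of M values over all 14 libraries. Differences were tested with edgeR's quasi-likelihood test, with Benjamini-Hochberg adjusted p under 0.05 over all genes tested as the threshold for calling a gene higher or lower. All 31 genes passed the filter on low counts in each of the 5 comparisons. Epcam, an epithelial adhesion molecule, was present in all libraries, at 233 to 340 CPM in E18.5 bladder, 423 to 483 CPM in E14.5 bladder, 549 to 617 CPM in E18.5 urethra and 328 to 505 CPM in E14.5 urethra. The mesenchymal and muscle content was uneven. The summed level of 15 mesenchymal markers was 20549.6 to 30684 CPM in E18.5 bladder, 1257 to 4965 CPM in E14.5 bladder, 5069.6 to 6137 CPM in E18.5 urethra and 3354 to 7395 CPM in E14.5 urethra. That of 10 smooth muscle markers was 5028 to 12762 CPM, 267 to 609 CPM, 1039.5 to 2354 CPM and 476 to 681 CPM in the same order of groups. In bulk RNA, fewer cells of a type and less RNA per cell cannot be told apart.

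Per kilobase of deposited gene length, the most abundant of the 31 genes were the same enzymes in both tissues at both stages. Ldha, the lactate dehydrogenase subunit that predominates in glycolytic tissue, averaged 403 CPM per kilobase in E18.5 bladder, 349 in E14.5 bladder, 325 in E18.5 urethra and 229 in E14.5 urethra. Aldoa (aldolase), Pkm (pyruvate kinase), Tpi1 (triose phosphate isomerase) and Pgk1 (phosphoglycerate kinase) lay between 176 and 384 CPM per kilobase in the 4 groups. Slc2a3, Eno2 and Pfkfb4 averaged under 5 CPM per kilobase in every group. Gapdh stood at 33.4, 26.7, 20.2 and 19.1 CPM per kilobase in E18.5 bladder, E14.5 bladder, E18.5 urethra and E14.5 urethra. Its deposited length is 4133 bases, against 1420 in its longest coding transcript, which lowers its value in this unit. Its transcript shares stretches of at least 100 bases at 95% identity or more with 81 other annotated genes, 76 of them pseudogenes, which together cover 88% of it, and how reads that fit several places were counted is not given in the sources used here. Such copies also cover 94.2% of the Bnip3 transcript, 85.6% of Eno1, 76.8% of Ldhb, 68.8% of Pgk1, 65.5% of Pkm, 55.3% of Gpi1, 55% of Ldha and 43.1% of Pgam1, and the levels of these genes are uncertain to that extent.

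A single library stood apart from the rest of its group. In replicate 1 of the E14.5 urethra, 16 of the 31 genes lay outside the other 3 libraries of the group by Dixon's ratio, against 7.53% of all genes tested, while in the 4 libraries of E14.5 bladder 0 of the 31 did, against 6.74% of all genes. Ndrg1, a gene induced by hypoxia and by differentiation, had 308, 34.1, 15.98 and 30.4 CPM in the 4 E14.5 urethra libraries, so that replicate 1 was 11.5 times the mean of the other 3. Egln3, a prolyl hydroxylase that HIF itself induces, had 87.3, 12.9, 12.2 and 9.303 CPM there, and Slc2a1, the main basal glucose transporter, had 521, 189, 130.2 and 187 CPM. Bnip3, a mitophagy receptor, had 222, 69.03, 54.1 and 89.1 CPM and Aldoa had 1086, 528, 489.99 and 509 CPM. Replicate 1 was the highest of its group for 23 of the 31 genes, against 38.2% of all genes tested, with exceptions such as Slc2a3, whose 4 values were 8.13, 17.5, 27.4 and 18.8 CPM, and Pfkfb4, at 7.08, 9.67, 9.64 and 9.34 CPM. The same library had a summed level of the 7 pan-epithelial markers of 3656 CPM, against 1657 to 2218 CPM in the other 3, and 388 CPM of the 10 immediate early and stress genes, against 244 to 296 CPM. Its mesenchymal sum was 3354 CPM, against 4017 to 7395 CPM. The pan-epithelial sum was 2564 to 3408 CPM in E18.5 bladder, 3941 to 4696 CPM in E14.5 bladder and 3596 to 4221 CPM in E18.5 urethra. Replicate 1 thus lay within the range of those groups, and replicates 2, 3 and 4 were the lowest of the 14 libraries. The same held for the summed CPM of the 31 genes. It was 10491 in replicate 1, 5742 to 6036 in replicates 2, 3 and 4, and 8897 to 11578 in the other groups. The part of these differences in the levels of the 31 genes was not tested. Counts of calls that use the E14.5 urethra, and the fold changes of most genes named there, are given with and without this library. Replicate 1 was singled out by the levels of these same 31 genes, after the data were seen. Leaving it out narrows the spread of many of them in this group and keeps the 3 libraries with the lowest pan-epithelial sums. Results without it are therefore descriptive and give no independent support for a difference.

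**Figure D1:**
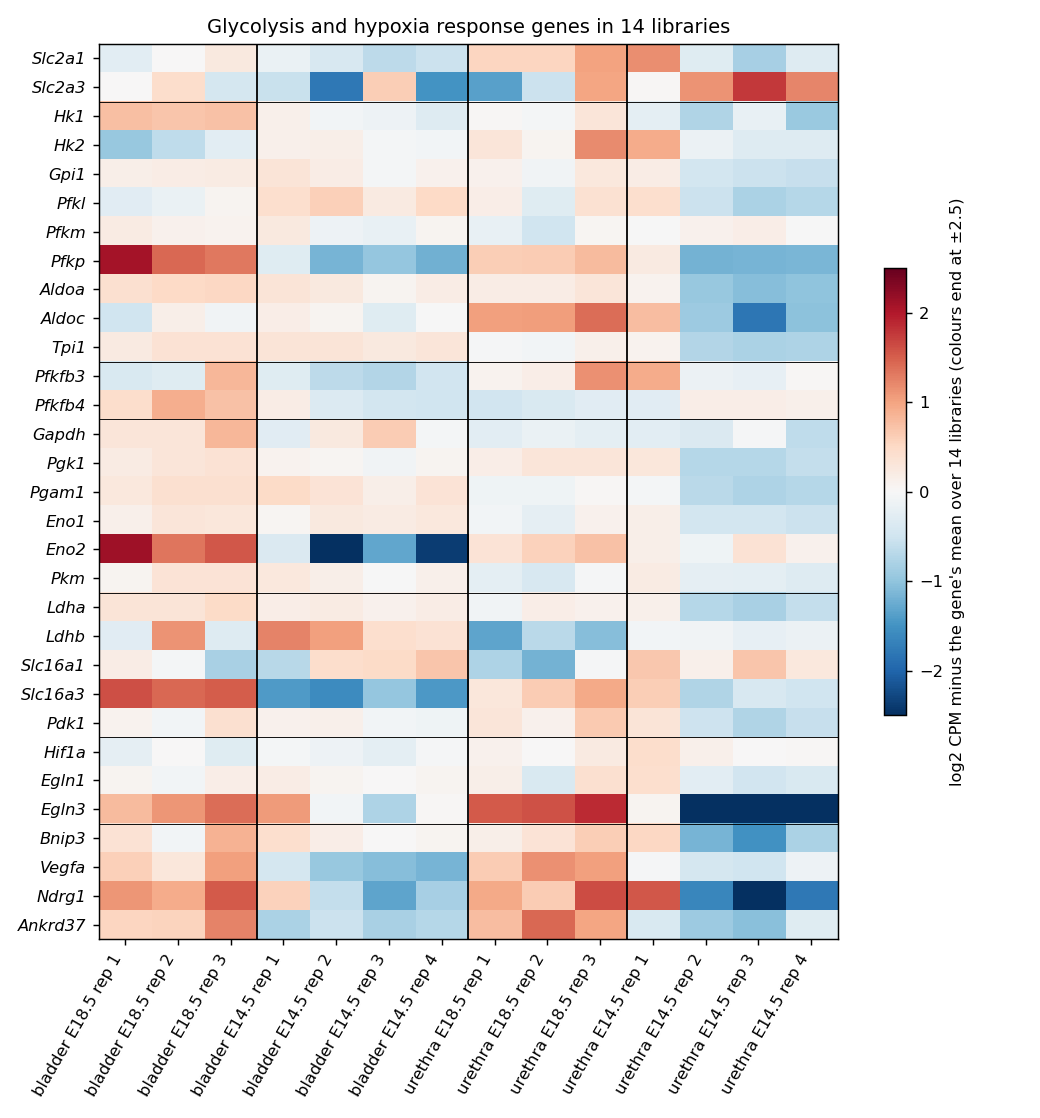
Each cell shows a gene's log2 CPM in 1 library minus that gene's mean over the 14 libraries, with genes as rows grouped by role and libraries as columns grouped by tissue and stage. In urethra E14.5, replicate 1 is redder than the other 3 libraries in most rows, with Ndrg1 at 308 CPM against 15.98 to 34.1 CPM.

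E18.5 against E14.5 asked how the pathway changed in late gestation in each tissue. In bladder, 7 of the 31 genes passed and all 7 rose (Hk1, Pfkp, Pfkfb4, Eno2, Slc16a3, Vegfa and Ankrd37), against 40.3% of all genes called in either direction, 19.9% upward and 20.4% downward. The stages did not overlap for 13 of the 31, 11 higher and 2 lower, against 46.4% of all genes. In urethra, 12 rose and 1 fell, against 33% of all genes called, 17.3% upward and 15.7% downward. There the stages did not overlap for 10 of the 31, 7 higher and 3 lower, against 20% and 18.2% of all genes. Without replicate 1 of the E14.5 urethra they did not overlap for 25, 21 higher and 4 lower, against 54.1% of all genes. The median log2 fold change of the 31 genes was 0.29 in bladder and 0.45 in urethra, beside -0.005 and 0.001 for all genes. Without replicate 1 of the E14.5 urethra, 21 rose and 1 fell in urethra, with 39.8% of all genes called, 21.8% upward and 18.1% downward, and the median of the 31 was 0.75. The bladder fit shares its estimate of spread with the urethra, and without that library 13 rose and 2 fell in bladder, with 44% of all genes called and 22.2% downward. The genes added there were Slc2a1, Aldoa, Pgk1, Ldha, Egln3 and Ndrg1, higher, and Hk2 and Pfkl, lower. All 7 bladder calls were kept whichever of the 14 libraries was left out, and of the 13 urethral calls Pfkp, Aldoa, Egln3, Vegfa and Ankrd37 were. The urethral count was 6, 7 and 8 without replicates 2, 3 and 4 of the E14.5 urethra, with 24.3%, 25.2% and 26.3% of all genes called. It was 8 without any one of the E18.5 urethra libraries, with 23.6%, 21.7% and 25.7% of all genes called without replicates 1, 2 and 3. Calls over all genes thus fell as well.

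Hk1, Pfkp, Slc16a3, Vegfa and Ankrd37 rose in both tissues, with and without that library. Slc16a3, the monocarboxylate transporter MCT4 that exports lactate, had the smallest adjusted p of the 31 in bladder. It had 134, 119 and 126 CPM in E18.5 bladder, against 16.3, 14.7, 22.4 and 16.2 CPM in E14.5 bladder (log2 fold change 2.89 ± 0.29 (SE), adjusted p = 1.60e-05). The 2 groups were far apart, a fold of 7.42. In urethra it had 53.7, 67.8 and 84.3 CPM at E18.5, against 66.97, 25.8, 33.2 and 31.1 CPM at E14.5 (log2 fold change 0.79 ± 0.28 (SE), adjusted p = 0.0428). The E14.5 library that stood apart lay inside the E18.5 range, and without it the log2 fold change was 1.18 ± 0.19 (adjusted p = 0.000384). The urethral call was lost on leaving out any one of the other E14.5 urethra libraries, with adjusted p of 0.0951 to 0.117, or replicate 2 or 3 of E18.5 urethra, with adjusted p of 0.0879 and 0.147. It was also lost, at adjusted p of 0.0502 to 0.0567, without replicate 1 or 4 of E14.5 bladder or replicate 3 of E18.5 bladder, which share the fit.

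Pfkp, the platelet-type phosphofructokinase, had 148, 94.7 and 86.5 CPM in E18.5 bladder, against 28.2, 15.6, 17.8 and 15.1 CPM in E14.5 bladder (log2 fold change 2.55 ± 0.35 (SE), adjusted p = 0.000135). In urethra it had 53.04, 54.3 and 60.3 CPM at E18.5, against 40.9, 15.4, 15.4 and 15.8 CPM at E14.5 (log2 fold change 1.34 ± 0.35 (SE), adjusted p = 0.0105, and 1.83 without replicate 1 of E14.5). Neither tissue's stages overlapped. Hk1, the hexokinase of most tissues, had 175, 168 and 172 CPM in E18.5 bladder, against 114, 99.4, 95.4 and 83.3 CPM in E14.5 bladder (log2 fold change 0.84 ± 0.17 (SE), adjusted p = 0.00159). The urethral values were 106, 100.1 and 129 CPM at E18.5, against 88.4, 62.1, 91.6 and 54.9 CPM at E14.5 (log2 fold change 0.58 ± 0.17 (SE), adjusted p = 0.02). The stages did not overlap in either tissue, and the urethral call was lost without replicate 2 of E14.5 (adjusted p = 0.0582) or replicate 3 of E18.5 (adjusted p = 0.0725).

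Vegfa, the growth factor that draws in blood vessels, had 110.2, 89.4 and 149 CPM in E18.5 bladder, against 53.9, 37.8, 34.9 and 32.6 CPM in E14.5 bladder (log2 fold change 1.58 ± 0.21 (SE), adjusted p = 9.43e-05). In urethra it had 113, 162 and 149 CPM, against 71.1, 53.5, 51.7 and 66.7 CPM (log2 fold change 1.21 ± 0.20 (SE), adjusted p = 0.00109). All E18.5 libraries exceeded all E14.5 libraries of their tissue. Ankrd37, a small ankyrin-repeat gene known as a HIF target, had 13.6, 13.6 and 22.002 CPM in E18.5 bladder, against 5.33, 6.34, 5.24 and 5.602 CPM in E14.5 bladder (log2 fold change 1.57 ± 0.23 (SE), adjusted p = 0.000225). Its urethral values were 15.8, 25.2 and 18.4 CPM at E18.5, against 7.08, 4.92, 4.46 and 7.498 CPM at E14.5 (log2 fold change 1.71 ± 0.23 (SE), adjusted p = 0.000342). The stages again did not overlap. When that library was left out, the urethral log2 fold changes were 0.67 for Hk1, 1.29 for Vegfa and 1.80 for Ankrd37. Genes on the opposite strand cover 26.4% of Ankrd37's exonic length, and the strand setting of the counting is not given in the sources used here.

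The promoters of these 5 genes, and of Egln3, which had the largest change in urethra, are shown because these genes rose with stage in both tissues or, for Egln3, by the most in urethra. Each runs 5′ to 3′ on the gene's strand from 250 bases before to 50 bases after a RefSeq transcription start, in GRCm38.p6. Capitals mark ACGTG or GCGTG and their reverse complements CACGT and CACGC, the core letters HIF binds, and overlapping matches are merged.
Hk1 (chr10:62379859-62380158, minus strand): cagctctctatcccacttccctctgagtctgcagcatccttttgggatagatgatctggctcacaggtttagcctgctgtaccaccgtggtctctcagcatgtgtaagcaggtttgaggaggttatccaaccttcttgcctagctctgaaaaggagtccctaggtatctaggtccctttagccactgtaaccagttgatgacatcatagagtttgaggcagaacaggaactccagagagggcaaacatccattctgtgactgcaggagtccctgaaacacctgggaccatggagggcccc
Pfkp (chr13:6648722-6649021, minus strand): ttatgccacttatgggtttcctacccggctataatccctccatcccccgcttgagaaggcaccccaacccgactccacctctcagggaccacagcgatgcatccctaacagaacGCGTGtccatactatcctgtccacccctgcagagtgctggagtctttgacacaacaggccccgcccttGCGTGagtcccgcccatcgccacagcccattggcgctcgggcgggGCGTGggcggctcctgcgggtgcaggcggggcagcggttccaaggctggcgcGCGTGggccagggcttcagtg
Slc16a3 (chr11:120948817-120949116, plus strand): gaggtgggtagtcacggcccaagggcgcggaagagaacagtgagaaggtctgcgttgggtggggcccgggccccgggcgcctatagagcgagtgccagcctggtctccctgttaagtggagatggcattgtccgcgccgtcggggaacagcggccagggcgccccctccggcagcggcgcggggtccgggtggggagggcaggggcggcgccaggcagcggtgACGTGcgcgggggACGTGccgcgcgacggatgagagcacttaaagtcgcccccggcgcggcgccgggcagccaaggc
Vegfa (chr17:46032328-46032627, minus strand): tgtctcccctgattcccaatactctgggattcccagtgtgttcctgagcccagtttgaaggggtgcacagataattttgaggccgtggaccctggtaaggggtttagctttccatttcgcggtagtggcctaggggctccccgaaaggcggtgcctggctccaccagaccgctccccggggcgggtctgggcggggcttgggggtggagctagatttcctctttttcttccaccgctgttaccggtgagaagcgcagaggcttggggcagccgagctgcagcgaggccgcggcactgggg
Ankrd37 (chr8:45999801-46000100, minus strand): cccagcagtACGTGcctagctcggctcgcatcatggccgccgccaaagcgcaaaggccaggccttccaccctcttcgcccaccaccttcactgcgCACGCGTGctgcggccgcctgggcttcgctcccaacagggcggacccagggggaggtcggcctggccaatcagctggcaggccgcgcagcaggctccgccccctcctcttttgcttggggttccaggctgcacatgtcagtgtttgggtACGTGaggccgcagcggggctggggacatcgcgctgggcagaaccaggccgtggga
Egln3 (chr12:54203825-54204124, minus strand): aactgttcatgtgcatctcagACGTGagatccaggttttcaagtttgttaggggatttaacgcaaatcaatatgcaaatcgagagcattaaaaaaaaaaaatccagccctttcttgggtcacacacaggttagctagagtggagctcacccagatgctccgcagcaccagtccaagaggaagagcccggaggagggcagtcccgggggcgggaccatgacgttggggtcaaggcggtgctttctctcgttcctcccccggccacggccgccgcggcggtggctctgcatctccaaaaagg

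Pfkp and Ankrd37 held 4 matches each in these windows, Slc16a3 held 2, Egln3 held 1, and the windows shown for Hk1 and Vegfa held 0. A second RefSeq promoter of Hk1 held 5 and one of Vegfa held 2. Over all 31 genes, RefSeq promoters were found for 29, and 34 of their 43 promoters (79.1%) held a match, beside 43.8% of all 32851 promoters of the same length. ACGTG or CACGT alone was in 53.5% of the 43 and 19.6% of all, and GCGTG or CACGC in 55.8% and 32.4%. A match is a description of letters and not of binding. Both motifs hold the letters CG, and the 43 promoters were not matched with the others for base content or expression. Some genes also count more than once among the 43.

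The other genes that passed in bladder were an enolase and a PFKFB enzyme. Eno2, the enolase best known from neurons, had 29.5, 17.1 and 19.7 CPM in E18.5 bladder, against 5.24, 0.691, 2.66 and 1.24 CPM in E14.5 bladder (log2 fold change 3.20 ± 0.50 (SE), adjusted p = 0.000292). Pfkfb4, which sets the level of fructose 2,6-bisphosphate, had 11.7, 16.2 and 14.3 CPM, against 9.81, 6.74, 6.23 and 6.05 CPM (log2 fold change 1.00 ± 0.19 (SE), adjusted p = 0.0013). Neither gene's stages overlapped in bladder. The 3 libraries of E18.5 bladder also had the highest mesenchymal and smooth muscle sums of the 14, and the highest endothelial sums, at 319 to 449 CPM against 32.1 to 137 CPM in E14.5 bladder. With a score of the mesenchymal markers as a covariate, 3 of the 31 genes passed in bladder, Slc16a3 (2.93), Vegfa (1.72) and Ankrd37 (2.15), all higher. On the same terms Pfkp had a log2 fold change of 2.76, Eno2 1.16, Hk1 0.76 and Pfkfb4 0.61, and all 4 missed the threshold. Of all genes 3.54% passed in that fit, and at an unadjusted p under 0.05 it had 12 of the 31 higher and 1 lower. The mesenchymal sums of the bladder stages did not overlap, at 20549.6 to 30684 CPM in E18.5 and 1257 to 4965 CPM in E14.5. Stage and mesenchymal content therefore go together in bladder, and the fit cannot sort genes that follow one from genes that follow the other.

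In urethra the genes that passed beyond the shared 5 were Aldoa, Aldoc, Tpi1, Pgk1, Pgam1, Pdk1 and Egln3, all higher, and Slc16a1, lower. Egln3 had 242, 251 and 304 CPM in E18.5 urethra, against 87.3, 12.9, 12.2 and 9.303 CPM in E14.5 urethra (log2 fold change 3.11 ± 0.68 (SE), adjusted p = 0.00449). Even the E14.5 library that stood apart was below the lowest E18.5 library, and without it the log2 fold change was 4.52 ± 0.40, a fold of 22.9. Aldoc, the brain-type aldolase, had 62.9, 63.6 and 81.4 CPM, against 52.6, 16.4, 8.76 and 15.1 CPM (log2 fold change 1.57 ± 0.44 (SE), adjusted p = 0.0155). Aldoa had 1167, 1164 and 1267 CPM in E18.5 urethra, against 1086, 528, 489.99 and 509 CPM in E14.5 urethra (log2 fold change 0.86 ± 0.22 (SE), adjusted p = 0.0109). For both aldolases replicate 1 was the only E14.5 library near the E18.5 values. Pdk1, the kinase that turns off pyruvate dehydrogenase, had 199.96, 176 and 256 CPM, against 204, 115, 96.9 and 109 CPM (log2 fold change 0.67 ± 0.22 (SE), adjusted p = 0.0338), and there replicate 1 lay inside the E18.5 range. Without it the log2 fold changes were 2.35 for Aldoc, 1.22 for Aldoa and 0.97 for Pdk1. Slc16a1, the transporter MCT1 that carries lactate and pyruvate both ways, had 19.4, 14.6 and 32.5 CPM in E18.5 urethra, against 52.9, 36.4, 53.6 and 39.7 CPM in E14.5 urethra (log2 fold change -1.06 ± 0.35 (SE), adjusted p = 0.0344). Its stages did not overlap, but without replicate 1 of E14.5 the call was lost (log2 fold change -0.98 ± 0.37, adjusted p = 0.0537). Other markers moved with stage in urethra too, as 5 of 7 pan-epithelial, 8 of 10 immediate early and stress, 10 of 12 skeletal muscle and 6 of 10 smooth muscle genes rose (6, 9, 12 and 6 without that library). Their part in these results was not tested. With the mesenchymal score as a covariate 14 of the 31 rose and 1 fell in urethra, against 37% of all genes called, 19.5% upward and 17.5% downward.

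Leaving out that library added 10 genes to the urethral calls. Ndrg1 had 203, 164 and 326 CPM in E18.5 urethra, against 308, 34.1, 15.98 and 30.4 CPM in E14.5 urethra, with a log2 fold change of 1.24 ± 0.80 over all libraries (adjusted p = 0.258) and 3.09 ± 0.47 without replicate 1 (adjusted p = 0.000282). Bnip3 had 172, 196 and 237 CPM, against 222, 69.03, 54.1 and 89.1 CPM, with 0.88 ± 0.38 (adjusted p = 0.0949) and 1.497 ± 0.23 (adjusted p = 0.000338). For Slc2a1 the values were 339, 336 and 471 CPM at E18.5, against 521, 189, 130.2 and 187 CPM at E14.5, with 0.56 ± 0.36 (adjusted p = 0.255) and 1.17 ± 0.19 (adjusted p = 0.000434). In each of the 3 genes the E18.5 libraries lay above replicates 2, 3 and 4 of E14.5, and replicate 1 lay among or above the E18.5 libraries. Hk2, Gpi1, Pfkl, Eno1, Ldha and Egln1 also passed upward without replicate 1, with log2 fold changes of 0.42 to 0.85, and Pfkfb4 passed downward at -0.55. Pfkm, the muscle-type phosphofructokinase, was the one gene of the 31 that passed in no comparison with or without that library. Hif1a had 214 ± 16.03 CPM in E18.5 urethra and 220.5 ± 31.9 CPM in E14.5 urethra (SD, n = 3 and 4; log2 fold change -0.06 ± 0.11 (SE), adjusted p = 0.736). Its log2 fold change without replicate 1 of E14.5 was 0.05 ± 0.10 (adjusted p = 0.719).

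The direction of the urethral change depended on the scaling for some of the genes. Scaling the libraries by the 7 pan-epithelial genes shifted the whole distribution of fold changes, to a median over all genes of -0.76 in urethra and 0.54 in bladder on the log2 scale. On that scale 4 of the 31 were called higher at E18.5 in urethra and 9 lower, against 54.6% of all genes called, 5.77% upward and 48.8% downward. The 4 called higher were Pfkp (0.75), Aldoc (1.09), Ankrd37 (1.00) and Egln3 (2.76), and the 9 called lower were Slc2a3, Pfkm, Pfkfb4, Gapdh, Eno1, Pkm, Ldhb, Slc16a1 and Hif1a. Hk1, Tpi1, Pgk1 and Pgam1, all called higher over all libraries by the trimmed mean, had log2 fold changes of -0.17, -0.17, -0.04 and -0.23 and were not called. In bladder 25 of the 31 were called higher and 0 lower, against 34.5% of all genes called, 32.8% upward. The median of the 31 lay above that of all genes under both scalings. A change of scaling moves all genes of a comparison by about the same amount, so the second scaling adds nothing on this point.

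**Figure D2:**
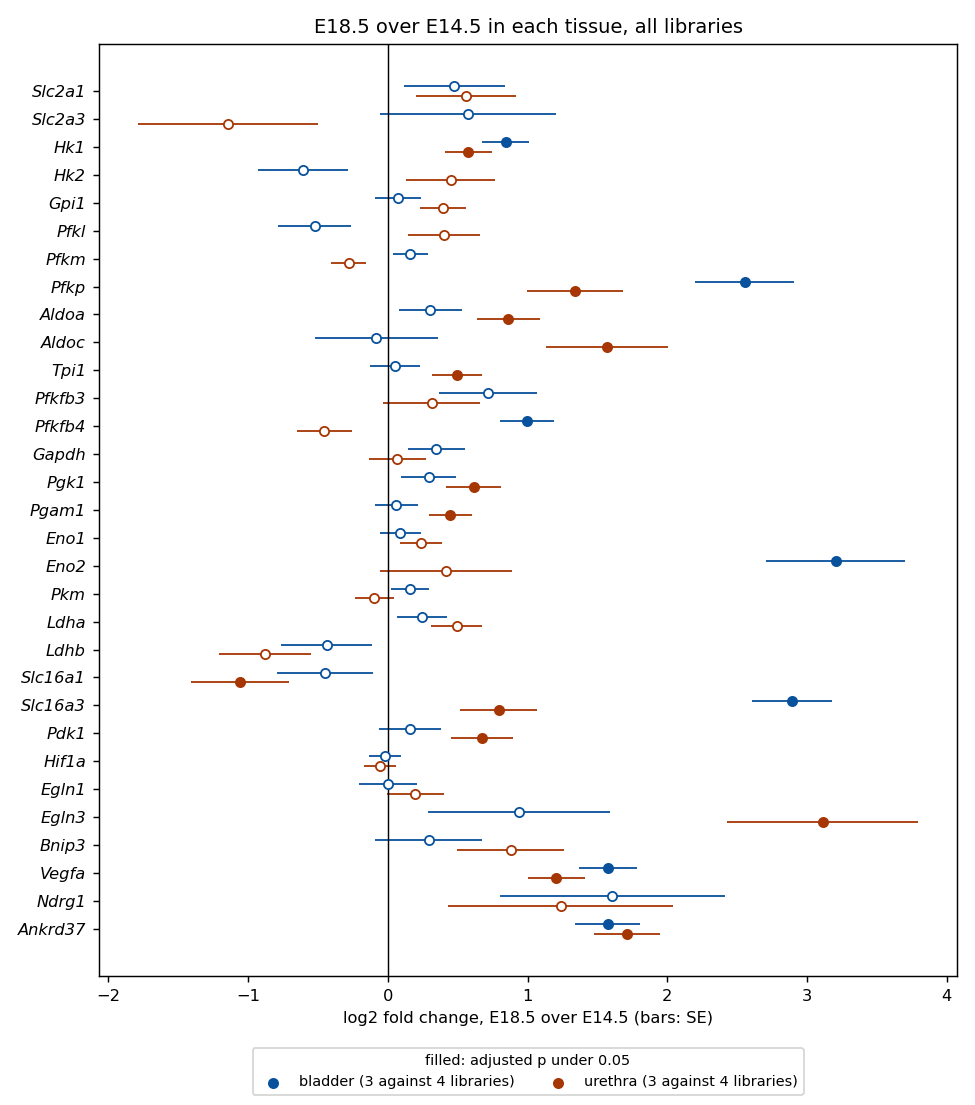
Log2 fold change of E18.5 over E14.5 for each gene (rows) with all libraries, bladder in blue and urethra in orange, bars giving the standard error and filled points an adjusted p under 0.05. Slc16a3 and Eno2 lie farthest right in bladder (2.89 and 3.20), and Egln3 farthest right in urethra (3.11).

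**Figure D3:**
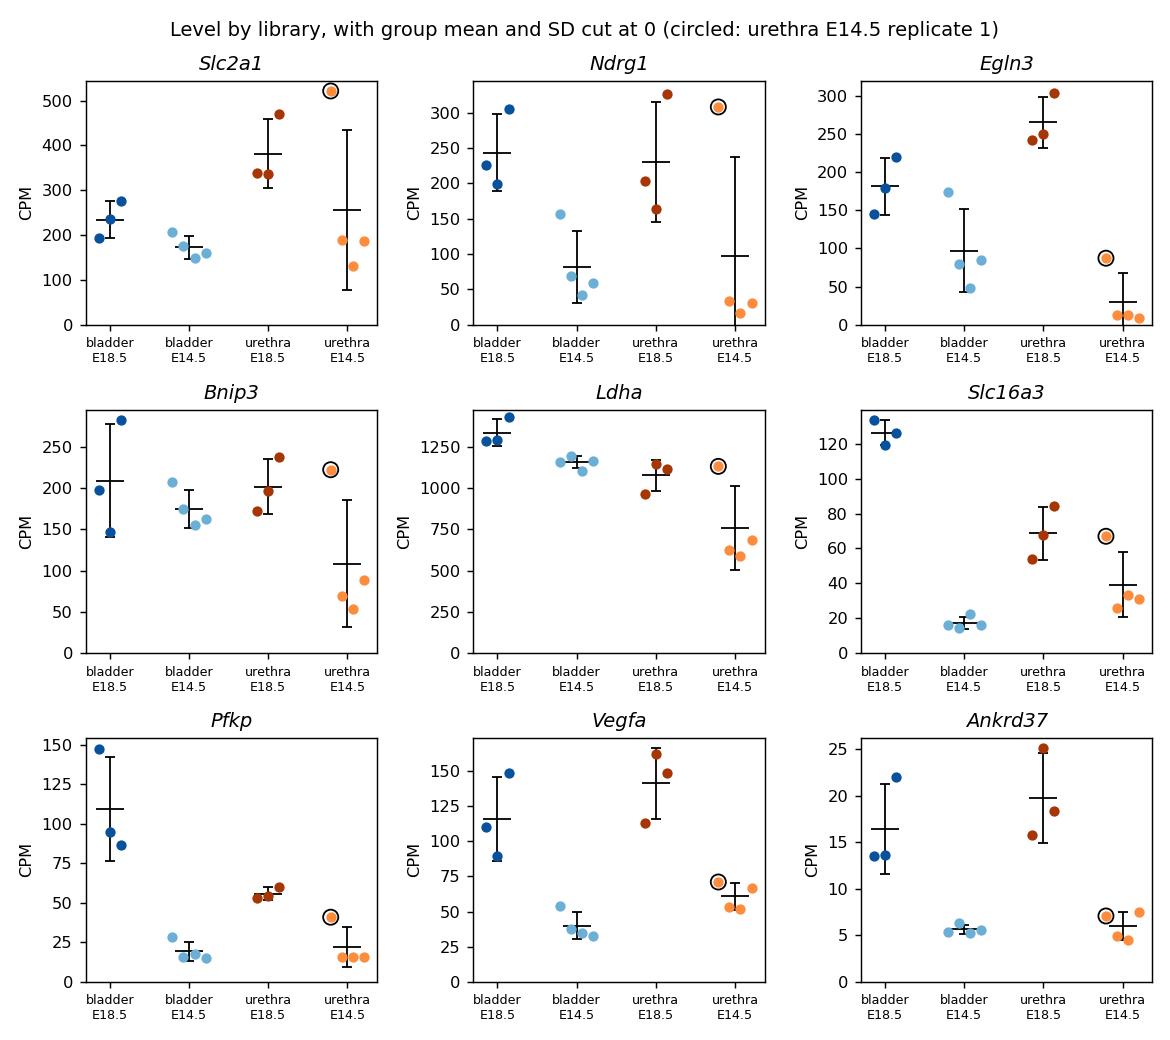
CPM of 9 genes in each library (points), with group mean and SD in black, and replicate 1 of the E14.5 urethra circled. The circled point is above the other 3 libraries of its group for all of these genes except Ankrd37, where it is second.

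Bladder against urethra at E14.5 asked how the pathway differed before the tissues had matured. Over all libraries, 6 of the 31 genes were higher in bladder (Aldoa, Tpi1, Pgam1, Eno1, Ldha and Ldhb) and 6 lower (Slc2a3, Pfkfb3, Eno2, Slc16a3, Hif1a and Vegfa). Of all 16697 genes tested, 44% were called, 23.1% higher and 20.9% lower. The tissues did not overlap for 7 of the 31, 3 higher and 4 lower in bladder, against 40.1% of all genes. Leaving out replicate 1 of the urethra, they did not overlap for 22, 17 higher and 5 lower, against 55.2%. The median log2 fold change of the 31 was 0.23, beside -0.04 for all genes. Without replicate 1 of the urethra, 17 were higher and 5 lower, with 49.2% of all genes called, 25.7% higher and 23.5% lower, and the median was 0.46. Of the 12 genes first called, 11 were called again and Eno2 was not (adjusted p = 0.057). Leaving out replicate 2, 3 or 4 gave 5, 7 and 4 calls for bladder and 6, 7 and 6 for urethra, and Tpi1, Pgam1, Ldhb and Slc16a3 were called whichever library was left out. Of all genes 32.7%, 45.7% and 33.7% were called without those bladder libraries, and 33.2%, 36.2% and 33.8% without those urethra libraries. The pan-epithelial markers themselves were higher in bladder for 5 of 7 genes, with 7 of 7 higher without replicate 1 of the urethra. Of the 15 mesenchymal markers 6 were lower in bladder and 0 higher, and of 10 skeletal muscle markers 3 were lower and 0 higher (8 and 2 lower without that library). The part of those differences in the results for the 31 genes was not tested beyond the scaling and covariate given after them.

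The genes higher in bladder were enzymes from aldolase to lactate dehydrogenase. Tpi1 had 957, 959, 904 and 947 CPM in bladder, against 817, 462, 444 and 449.7 CPM in urethra (log2 fold change 0.75 ± 0.20 (SE), adjusted p = 0.0148). Ldha had 1158, 1191, 1104 and 1166 CPM, against 1131, 625, 589 and 685 CPM (log2 fold change 0.57 ± 0.20 (SE), adjusted p = 0.0437). The bladder libraries lay close together in both genes, and in the urethra replicate 1 lay above the other 3. Leaving it out, the log2 fold change of Tpi1 was 1.02 and that of Ldha 0.83. Ldhb, the lactate dehydrogenase subunit of oxidative tissue, kept its difference without that library (0.92), with 369, 317, 209 and 201 CPM in bladder, against 148, 146, 136 and 141 CPM in urethra (log2 fold change 0.90 ± 0.19 (SE), adjusted p = 0.00619). Pgam1 (phosphoglycerate mutase) averaged 362 ± 35.3 CPM in bladder and 201 ± 52.9 CPM in urethra (means with SD over 4 libraries; log2 fold change 0.81 ± 0.16 (SE), adjusted p = 0.0052, and 1.02 without replicate 1).

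The genes lower in bladder included a transporter at each end of the pathway. Slc16a3 had 16.3, 14.7, 22.4 and 16.2 CPM in bladder, against 66.97, 25.8, 33.2 and 31.1 CPM in urethra (log2 fold change -1.21 ± 0.30 (SE), adjusted p = 0.0131, and -0.82 without replicate 1). The groups did not overlap. Slc2a3, the high-affinity glucose transporter of neurons, had 5.42, 2.28, 12.2 and 2.78 CPM, against 8.13, 17.5, 27.4 and 18.8 CPM (log2 fold change -1.69 ± 0.59 (SE), adjusted p = 0.0448), and here replicate 1 of the urethra was the low library and fell inside the bladder range. Eno2 had 5.24, 0.691, 2.66 and 1.24 CPM in bladder, against 7.43, 6.23, 8.68 and 7.18 CPM in urethra (log2 fold change -1.62 ± 0.55 (SE), adjusted p = 0.0422). Hif1a had 189.8, 181, 165 and 192 CPM, against 267, 215, 199 and 201 CPM (log2 fold change -0.32 ± 0.10 (SE), adjusted p = 0.0314), without overlap. Vegfa averaged 39.8 ± 9.66 CPM in bladder and 60.8 ± 9.58 CPM in urethra (means with SD over 4 libraries; log2 fold change -0.65 ± 0.18 (SE), adjusted p = 0.018). With replicate 1 of the urethra left out, the log2 fold change was -1.93 for Slc2a3, -0.21 for Hif1a and -0.56 for Vegfa, all still called.

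Egln3, Ndrg1, Bnip3 and Hk2 passed in this comparison, all higher in bladder, without the library that stood apart and not with it. The same held for Gpi1, Pfkl, Aldoc, Pgk1, Pkm, Pdk1 and Egln1, with log2 fold changes of 0.36 (Pkm) to 1.15 (Aldoc) without it. Egln3 had 175, 79.3, 48.5 and 84.8 CPM in bladder, against 87.3, 12.9, 12.2 and 9.303 CPM in urethra, with a log2 fold change of 1.63 ± 0.76 over all libraries (adjusted p = 0.113) and 3.03 ± 0.43 without replicate 1 of the urethra (adjusted p = 0.000908). Ndrg1 had 157, 69.4, 42.3 and 59.4 CPM, against 308, 34.1, 15.98 and 30.4 CPM, and its sign turned, with -0.28 ± 0.90 (adjusted p = 0.818) and 1.57 ± 0.47 (adjusted p = 0.0251). Hk2 turned in the same way, with -0.14 ± 0.27 (adjusted p = 0.708) and 0.27 ± 0.08 (adjusted p = 0.0299). For Bnip3 the 2 values were 0.65 ± 0.40 (adjusted p = 0.216) and 1.26 ± 0.17 (adjusted p = 0.000842). Bladder replicate 1 was also the highest of its group for 19 of the 31 genes, Egln3 and Ndrg1 among them, against 28.4% of all genes tested. With both replicate 1 libraries left out, a setting chosen after the data were seen, 16 of the 31 were higher in bladder and 6 lower, against 49.1% of all genes called, 26.4% higher and 22.6% lower.

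Under scaling by the pan-epithelial genes, which moved the median of all genes to -0.99, edgeR called 0 of the 31 higher in bladder, with 0 at an unadjusted p under 0.05, and 19 lower, and the median of the 31 was -0.68. Of all genes 70.9% were called on that scale, 3.23% higher and 67.6% lower. Aldoa, Tpi1, Pgam1, Eno1, Ldha and Ldhb then had log2 fold changes between -0.01 and -0.44. With the mesenchymal score as a covariate edgeR called 0 of the 31 higher and 2 lower, and 4 were higher and 5 lower at an unadjusted p under 0.05. Of all genes 18.6% were called in that fit, 9.72% higher and 8.86% lower.

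**Figure D4:**
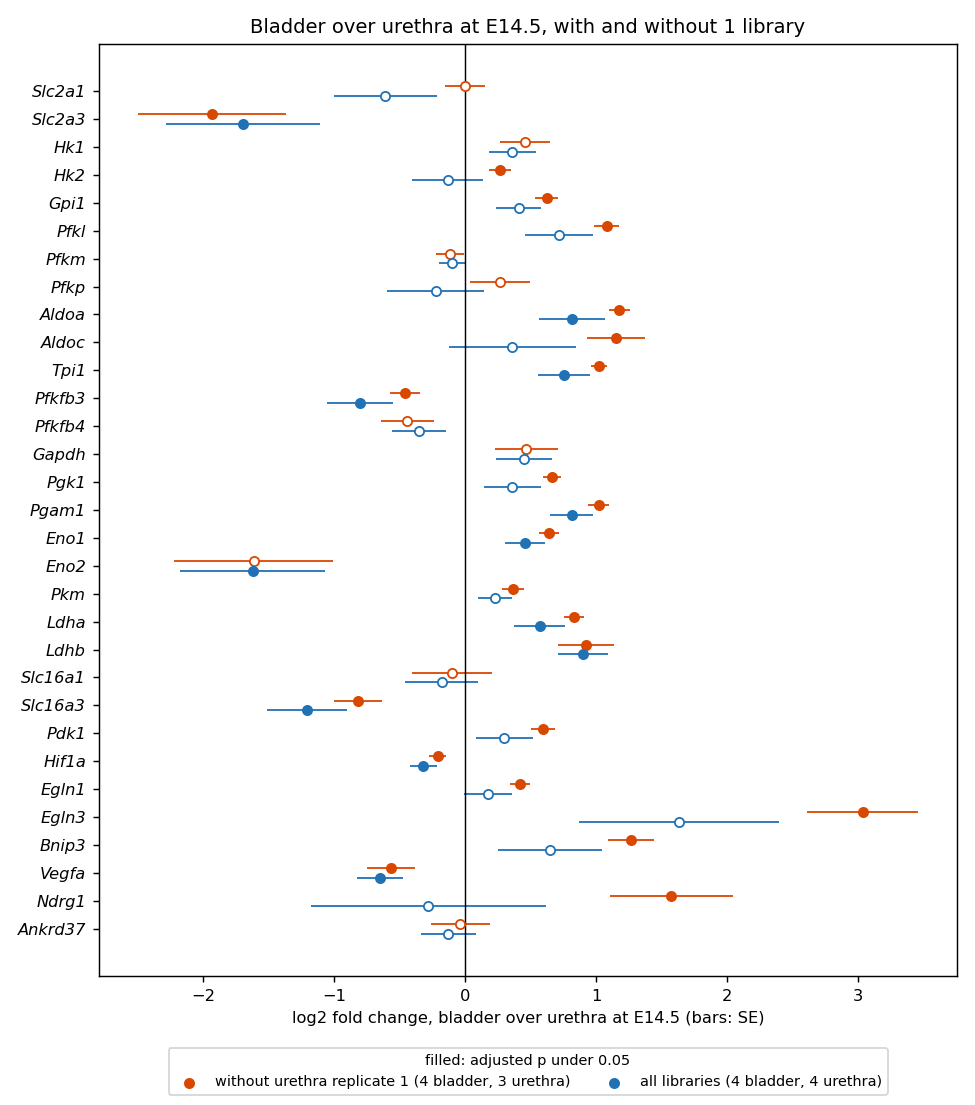
Log2 fold change of bladder over urethra at E14.5 for each gene (rows), without replicate 1 of the urethra in orange and with all libraries in blue, bars giving the standard error and filled points an adjusted p under 0.05. Ndrg1 moves most, to 1.57 without that library against -0.28 with it, and Egln3 reaches 3.03.

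Bladder against urethra at E18.5 does not use the E14.5 libraries. Of the 31 genes, 9 were higher in bladder (Hk1, Pfkp, Pfkfb4, Gapdh, Pgam1, Eno2, Pkm, Ldhb and Slc16a3) and 4 lower (Slc2a1, Hk2, Aldoc and Egln3), while 37.9% of all genes were called, 19.3% higher and 18.6% lower. The tissues did not overlap for 19 of the 31, 14 higher and 5 lower in bladder, against 51.2% of all genes. The median of the 31 was 0.06, beside -0.03 for all genes. Pgam1, Pkm, Ldhb and Egln3 lost their call without at least 1 of the 6 libraries, with adjusted p of up to 0.106, and the other 9 did not. Under scaling by the pan-epithelial genes, which moved the median of all genes to 0.36, 14 of the 31 were higher and 2 lower, against 29.4% and 7.64% of all genes. Slc2a1 and Egln3 were then not called lower, and Pfkm, Aldoa, Tpi1, Eno1 and Ldha were added to the genes called higher. Slc2a1 had 194, 235 and 275 CPM in bladder, against 339, 336 and 471 CPM in urethra (log2 fold change -0.72 ± 0.18 (SE), adjusted p = 0.0139), without overlap. Hk2, the hexokinase that insulin and HIF induce, had 61.2, 75.8 and 97.5 CPM, against 145, 124 and 267 CPM (log2 fold change -1.22 ± 0.30 (SE), adjusted p = 0.0125), and Hk1 had 175, 168 and 172 CPM, against 106, 100.1 and 129 CPM (log2 fold change 0.60 ± 0.12 (SE), adjusted p = 0.00529). The 2 hexokinases differed between the tissues in opposite directions, and neither overlapped.

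Aldoc had 21.7, 33.9 and 28.9 CPM in bladder, against 62.9, 63.6 and 81.4 CPM in urethra (log2 fold change -1.32 ± 0.18 (SE), adjusted p = 0.000743). Aldoa, its abundant paralog, had 1350.1, 1453 and 1465 CPM, against 1167, 1164 and 1267 CPM (log2 fold change 0.23 ± 0.10 (SE), adjusted p = 0.118), and did not pass. Egln3 was lower in bladder, with 145, 179.6 and 219 CPM, against 242, 251 and 304 CPM (log2 fold change -0.57 ± 0.17 (SE), adjusted p = 0.0277). None of the 4 genes lower in bladder overlapped between the tissues. Slc16a3 and Eno2, both lower in bladder at E14.5 over all libraries, were here higher. Slc16a3 had 134, 119 and 126 CPM in bladder, against 53.7, 67.8 and 84.3 CPM in urethra (log2 fold change 0.86 ± 0.16 (SE), adjusted p = 0.00405), and Eno2 had 29.5, 17.1 and 19.7 CPM, against 8.56, 10.05 and 11.2 CPM (log2 fold change 1.14 ± 0.23 (SE), adjusted p = 0.00587). Pfkp (0.95), Pfkfb4 (1.07), Ldhb (1.31), Gapdh (0.71), Pkm (0.46) and Pgam1 (0.40) completed the higher group, as log2 fold changes. Ldhb rested on uneven bladder libraries, with 128, 340.2 and 124 CPM in bladder, against 62.9, 98.03 and 74.2 CPM in urethra.

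Markers of other cells moved with this comparison. Of the 15 mesenchymal markers 12 were higher in bladder and 0 lower, and all 10 smooth muscle, all 10 endothelial and 11 of 12 leukocyte markers were higher. Lower in bladder were 3 of 7 pan-epithelial markers and 6 of 10 immediate early and stress genes, with 0 of these 10 higher, and of 12 skeletal muscle markers 7 were lower and 3 higher. Their part in the differences of the 31 genes was not tested apart from one setting: the mesenchymal score separated the tissues completely at E18.5, and with it as a covariate 0 of the 31 genes passed by edgeR and 1 did at an unadjusted p under 0.05, while 1 gene of 17513 passed in all. Tissue and mesenchymal content therefore cannot be told apart at this stage. The signs of Pfkp, Ldhb and Egln3 turned in the fit with the covariate, without passing (-0.34, -0.35 and 0.23). DESeq2 without the covariate called 11 higher and 4 lower, against 40.5% of all genes called, 20.9% higher and 19.6% lower.

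The interaction asked whether the tissue difference itself changed between the stages, as the difference of the log2 fold change at E18.5 and that at E14.5. Over all libraries 3 of the 31 genes passed, all with a positive value: Eno2 (2.79 ± 0.69, adjusted p = 0.0128), Slc16a3 (2.10 ± 0.40, adjusted p = 0.0038) and Pfkfb4 (1.45 ± 0.28, adjusted p = 0.00388). Of all genes 22.9% passed, 12.2% positive. In these 3 genes the level was highest in E18.5 bladder and at E14.5 it was higher in urethra, a difference that did not pass for Pfkfb4. The genes lie at chr6:124760053-124769673 (Eno2), chr11:120948480-120960868 (Slc16a3) and chr9:108991778-109032228 (Pfkfb4) in GRCm38. Without replicate 1 of the E14.5 urethra the same 3 passed upward, at 2.79, 1.71 and 1.55, and 12 others passed downward, with 31.3% of all genes called and 16.5% downward. Those 12 were Hk2, Gpi1, Pfkl, Aldoa, Aldoc, Tpi1, Pgk1, Pgam1, Ldha, Pdk1, Egln3 and Bnip3. Egln3 had the most negative value, -3.58 ± 0.49 (adjusted p = 0.000266), followed by Aldoc at -2.44 ± 0.31 (adjusted p = 0.000169). In these 12 genes the bladder stood lower against the urethra at E18.5 than at E14.5. Under scaling by the pan-epithelial genes the interaction of all genes had a median of 1.29 and 25 of the 31 were positive and called, against 69.9% of all genes called and 68.3% positive. Among the 12, Gpi1, Aldoa, Tpi1, Pgk1, Pgam1, Ldha and Pdk1 then had positive values, of 0.61 to 0.96. With the mesenchymal score as a covariate 0 passed by edgeR, against 0.312% of all genes, and 2 did at an unadjusted p under 0.05. DESeq2 over all libraries and without the covariate called 3 upward and 1 downward, against 28% of all genes called, 14.9% upward and 13.1% downward.

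Shares within families compare paralogs inside a library and do not depend on the scaling between libraries. They are given per kilobase of deposited gene length, as mean ± SD over the 3 or 4 libraries of a group and with no test. Their levels depend on the lengths used. Hk2 made up 39.1% ± 5.76 of Hk1 and Hk2 in E18.5 bladder and 63.99% ± 1.87 in E14.5 bladder, against 68.3% ± 5.76 in E18.5 urethra and 69.99% ± 7.88 in E14.5 urethra. By this measure the E18.5 bladder was the one group in which Hk1 led in every library. The deposited length of Hk1 is 8532 bases, against 4278 in its longest coding transcript, and that of Hk2 is 5969 against 5513. Which of the 2 leads can therefore change with the length used. Slc16a3 took 78.3% ± 5.52 of the 2 monocarboxylate transporters in E18.5 bladder and 27.5% ± 9.11 in E14.5 bladder, against 72.5% ± 6.03 in E18.5 urethra and 40.5% ± 7.56 in E14.5 urethra. In each tissue the share of the exporter was higher in every E18.5 library than in any E14.5 library. Egln3 formed 58.3% ± 4.64 of Egln1 and Egln3 in E18.5 bladder and 40.2% ± 11.3 in E14.5 bladder, against 67.3% ± 4.57 and 16.7% ± 11.96 in E18.5 and E14.5 urethra. Replicate 1 of the E14.5 urethra had the highest share of its group in all 3 families, at 34.5% against 8.91 to 12.1% for Egln3, 51.3% against 33.99 to 39.5% for Slc16a3 and 78.4% against 59.4 to 71.1% for Hk2.

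Phosphofructokinase was mostly the liver type, Pfkl, in all groups. Its share was 69.5% ± 4.82 in E18.5 bladder and 82.7% ± 2.28 in E14.5 bladder, against 78.8% ± 1.45 in E18.5 urethra and 71.4% ± 7.17 in E14.5 urethra. Pfkp took 8.67% ± 2.95 in E18.5 bladder and 1.22% ± 0.391 in E14.5 bladder, against 4.37% ± 0.834 and 1.96% ± 0.422 in E18.5 and E14.5 urethra, the smallest share of the family by this measure. The deposited length of Pfkp is 13401 bases, against 4145 in its longest coding transcript. For Pfkl these lengths are 6675 and 3730, and for Pfkm 3340 and 2879, so the share of Pfkp is lowered most by this unit. Ldhb held 22.8% ± 11.2 of the 2 lactate dehydrogenase subunits in E18.5 bladder and 32.8% ± 6.35 in E14.5 bladder, against 13.2% ± 1.77 in E18.5 urethra and 29.4% ± 5.31 in E14.5 urethra. The urethral stages did not overlap, although replicate 1 of E14.5 had 21.7% against 30.2 to 33.01% in the other 3, and the bladder stages did through 1 library of E18.5 at 35.7%. Aldoc stayed a small part of aldolase, at 2.19% ± 0.397 and 2.85% ± 0.194 in E18.5 and E14.5 bladder, against 6.14% ± 0.576 and 3.47% ± 1.33 in E18.5 and E14.5 urethra. Deposited and longest coding transcript lengths are 3310 and 1815 bases for Ldha and 1570 and 1304 for Ldhb. For Aldoa they are 3710 and 1549, and for Aldoc 3263 and 2786. The shares of Ldhb and Aldoc are therefore raised by this unit. Copies cover 76.8% of the Ldhb transcript and 55% of that of Ldha, which also limits that share. Replicate 1 of the E14.5 urethra again had the highest share of its group for Pfkl, at 81.7% against 65.2 to 69.8%, and for Aldoc, at 5.22% against 1.99 to 3.40%.

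**Figure D5:**
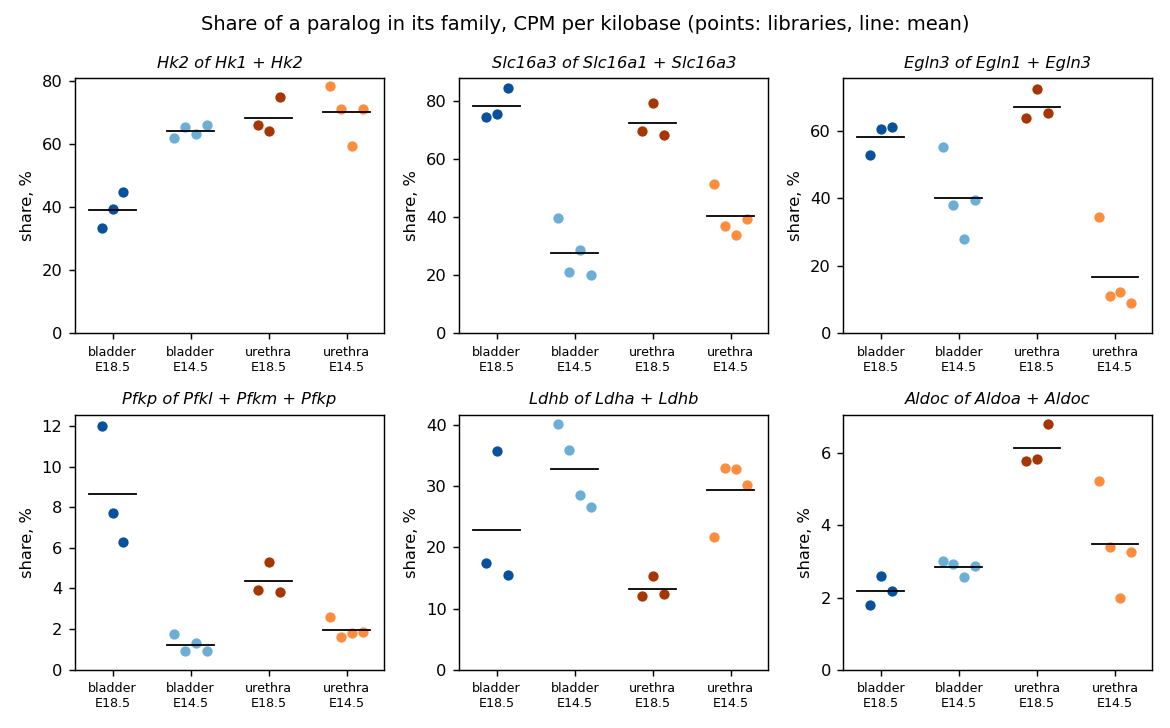
Share of 1 paralog in its family's sum of CPM per kilobase, in percent, by group, with 1 point per library and a line at the mean. Hk2 lies lowest in E18.5 bladder, at a mean of 39.1%, and Slc16a3 is at 68.3% or more in both E18.5 groups and at 51.3% or less in both E14.5 groups.

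Other genes of the pathways were counted for comparison with the 31, from lists that hold none of them. Of 30 other hypoxia response genes, 16 rose and 2 fell in bladder at E18.5 against E14.5, and 8 rose and 1 fell in urethra. Leaving out replicate 1 of the E14.5 urethra, the counts were 19 and 2 in bladder and 17 and 1 in urethra. Adm, which encodes the vasodilator adrenomedullin, averaged 38.97 ± 21.5 CPM in E18.5 bladder and 2.12 ± 2.19 CPM in E14.5 bladder (SD, n = 3 and 4; log2 fold change 4.21 ± 0.76 (SE), adjusted p = 0.000831). In urethra Adm had 25.9 ± 10.2 CPM at E18.5 and 2.998 ± 3.03 CPM at E14.5 (log2 fold change 3.10 ± 0.73 (SE), adjusted p = 0.00675). Car9, the surface carbonic anhydrase widely used as a hypoxia marker, averaged 13.4 ± 2.19 CPM in E18.5 urethra and 0.778 ± 0.889 CPM in E14.5 urethra (log2 fold change 4.10 ± 0.58 (SE), adjusted p = 0.000437, and 5.29 without replicate 1 of E14.5). Ppp1r3c, which targets a phosphatase to glycogen, reached 78.8 ± 8.39 CPM in E18.5 bladder, against 4.63 ± 2.05 CPM in E14.5 bladder (log2 fold change 4.13 ± 0.32 (SE), adjusted p = 3.70e-06). Angptl4, an inhibitor of lipoprotein lipase, fell in urethra to 3.21 ± 0.239 CPM at E18.5, against 10.3 ± 3.71 CPM at E14.5 (log2 fold change -1.70 ± 0.30 (SE), adjusted p = 0.00145). Between the tissues the list was mixed, with 6 higher and 11 lower in bladder at E14.5 (9 and 13 without replicate 1 of the urethra), and 7 higher and 7 lower at E18.5.

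Of 10 other genes of the machinery around HIF, 4 were higher and 2 lower in bladder than urethra at E14.5, and 1 was higher and 5 lower at E18.5, and the E14.5 counts were the same without replicate 1 of the urethra. Epas1, which encodes HIF-2 alpha and is abundant in endothelium, averaged 50.4 ± 8.82 CPM in E18.5 bladder and 8.93 ± 4.62 CPM in E14.5 bladder (log2 fold change 2.53 ± 0.40 (SE), adjusted p = 0.000318). The endothelial sum was higher in the same libraries, and its part was not tested. Arnt2, a neural partner of HIF, had 11.9 ± 6.58 CPM in bladder and 70.5 ± 16.96 CPM in urethra at E14.5 (log2 fold change -2.60 ± 0.38 (SE), adjusted p = 0.00137).

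Among the neighbouring routes of glucose, the pentose phosphate pathway was higher in E14.5 bladder for 6 of 7 genes and lower for 0. Of all genes 23.1% were higher and 20.9% lower. The counts were the same without replicate 1 of the urethra, beside 25.7% and 23.5% of all genes. Under scaling by the pan-epithelial genes 3.23% of all genes were called higher there and 67.6% lower, and the values of these 7 on that scale are not given here. At E18.5 the nearest to the threshold, named after their values were seen, were Tkt, a transketolase (log2 fold change 0.45 ± 0.16 (SE), adjusted p = 0.0546), and Pgd (log2 fold change 0.34 ± 0.13 (SE), adjusted p = 0.063). G6pdx, its first enzyme, averaged 320.03 ± 28.4 CPM in E14.5 bladder and 129.9 ± 36.1 CPM in E14.5 urethra (log2 fold change 1.26 ± 0.18 (SE), adjusted p = 0.00114), and it fell in bladder to 213 ± 42.8 CPM at E18.5 (log2 fold change -0.55 ± 0.18 (SE), adjusted p = 0.0285). Fbp2, a muscle-type fructose bisphosphatase, averaged 36.2 ± 10.98 CPM in E14.5 bladder and 5.34 ± 3.802 CPM in E14.5 urethra (log2 fold change 2.72 ± 0.45 (SE), adjusted p = 0.0022). Pdk4, the pyruvate dehydrogenase kinase of fasting muscle, rose in both tissues, to 21.6 ± 4.97 CPM in E18.5 bladder, against 2.75 ± 2.54 CPM in E14.5 bladder (log2 fold change 3.00 ± 0.52 (SE), adjusted p = 0.000612), and to 7.12 ± 2.82 CPM in E18.5 urethra, against 1.63 ± 0.554 CPM in E14.5 urethra (log2 fold change 2.12 ± 0.52 (SE), adjusted p = 0.00847). Eno3, the muscle enolase, averaged 50.8 ± 27.1 CPM in E18.5 bladder and 4.48 ± 0.632 CPM in E14.5 bladder (log2 fold change 3.55 ± 0.45 (SE), adjusted p = 7.24e-05), in libraries whose 12 skeletal muscle markers summed to 339 to 1446 CPM against 9.62 to 27.6 CPM. That sum does not stand for all 12 markers. Without replicate 1 of the E14.5 urethra 5 were called higher and 1 lower in bladder. The lower one was Myod1, which averaged 0.0884 CPM in E18.5 bladder and 0.646 CPM in E14.5 bladder over all libraries. Hk3, a hexokinase of white blood cells, averaged 6.18 ± 2.001 CPM in E18.5 bladder and 0.421 ± 0.269 CPM in E14.5 bladder (log2 fold change 3.93 ± 0.64 (SE), adjusted p = 0.00041), where 12 of 12 leukocyte markers were also higher at E18.5, and the part of those cells was not tested. Of the 17 other glycolysis genes tested in each tissue, 4 rose and 0 fell in bladder with stage and 4 rose and 1 fell in urethra. These counts, with replicate 1 of the E14.5 urethra left out, were 4 and 1 in bladder and 5 and 4 in urethra. On the same terms the urethral log2 fold change was 4.10 for Adm, -1.92 for Angptl4 and 2.37 for Pdk4, and that between the tissues at E14.5 was 1.45 for G6pdx, 3.35 for Fbp2 and -2.76 for Arnt2.

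Libraries other than the one that stood apart also ranked unevenly. In E18.5 urethra replicate 3 was the highest of its group for 25 of the 31 genes, against 35% of all genes tested, and in E18.5 bladder replicate 3 was the highest for 17, against 31.6%. Hk2 gives an example, with 61.2, 75.8 and 97.5 CPM in bladder and 145, 124 and 267 CPM in urethra, each in replicate order. The same replicate number was highest in both tissues for 13 of the 31 genes at E18.5, against 29.8% of all genes, and for 17 at E14.5, against 37.1%. Pools of a litter were the replicates, and the labels do not say whether equal numbers in the 2 tissues mark the same litter.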

How the data were processed

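The samples are described at the opening of the report. Per the submitters' processing notes, reads were handled with bcl2fastq, HISAT2 2.2.1 and SAMtools 1.9 on GRCm38. The sources used here do not name the counting tool, its strand setting or its handling of reads with several places. The authors deposited raw counts per gene with a gene length, in 2 tables, 1 per stage. The labels speak of 3 litters per sample type in one place and of 4 at E14.5 in another, and 4 libraries per tissue were present at E14.5. Mitochondrially encoded genes were listed at 0 in all libraries.

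From the counts, libraries were scaled by the trimmed mean of M values and tested with edgeR 4.0.16 (quasi-likelihood, filterByExpr, Benjamini-Hochberg over all genes tested, R 4.3.3). Tissue comparisons used the 8 libraries of E14.5 or the 6 of E18.5. Stage and interaction used all 14. DESeq2 1.42.0, other scalings and filters, a mesenchymal score as covariate, a replicate block, and leaving out each library were alternatives, and leaving out replicate 1 of both tissues at E14.5 was added after the data were seen. Results without replicate 1 of the E14.5 urethra are shown throughout because the 31 genes themselves stood apart in it. The procedure was tested on simulated counts. Standard errors, p-values and SDs rest on 3 or 4 litter pools a group. The SE beside an edgeR log2 fold change is its absolute value divided by the square root of the test's F statistic. It was thus worked back from the test, whose estimate of spread is shared by all libraries of a fit. Replicates of a group differed by more than counting noise. CPM per kilobase uses the deposited gene length. The 31 genes and the other lists were chosen with earlier results of these data known. All 31 genes are accounted for, and in the other pathway lists the rule gave, per comparison and direction, up to 2 called genes with the largest fold change and a mean of at least 5 CPM in the higher group, of which the text names part. Tkt and Pgd at E18.5 fall outside it. Copies of each transcript were found with BLAST 2.17.0+ against GENCODE M21 transcripts, and promoters are RefSeq's for GRCm38.p6.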

Additional observations from a re-analysis of the deposited data

Results flagged for a closer look

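In the 4 libraries of E14.5 urethra, replicate 1 lay farther from the other 3 than Dixon's 95% limit allows for 16 of the 31 genes. Chance flags about 1 in 20 groups, and 7.53% of all genes tested were flagged in this group. In replicate 1 the levels were 521 CPM for Slc2a1, 225 CPM for Hk2, 524 CPM for Gpi1, 646 CPM for Pfkl, 40.9 CPM for Pfkp, 1086 CPM for Aldoa, 817 CPM for Tpi1 and 99.0 CPM for Pfkfb3. They were 721 CPM for Pgk1, 279.6 CPM for Pgam1, 713 CPM for Eno1, 1721 CPM for Pkm, 204 CPM for Pdk1, 87.3 CPM for Egln3 and 308 CPM for Ndrg1. All of these were above the other 3 libraries, and Pfkfb4, at 7.08 CPM, was below them.

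The tissue difference changed between E18.5 and E14.5 by edgeR's interaction term for Pfkfb4 (1.45 on the log2 scale), Eno2 (2.79) and Slc16a3 (2.10). All 3 were called whichever library was left out, and none with the mesenchymal score as a covariate.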

How the results depend on the processing

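DESeq2 size factors, no filter on low counts and DESeq2 itself turned the direction of no called gene, with 0, 3 and 6 of 155 verdicts on a gene and comparison changed. Leaving out 1 library at a time gave 4 to 22 of the 31 called at E14.5, 10 to 13 at E18.5, 7 to 15 in bladder with stage, 6 to 22 in urethra and 3 to 15 for the interaction. Over all genes it gave 5593 to 8394, 4751 to 6628, 5952 to 8011, 4062 to 7260 and 2654 to 5697. Without replicate 1 of the E14.5 urethra, Hk2 (0.27) and Ndrg1 (1.57) turned to higher in E14.5 bladder, from ranges over the left-out libraries that start at -0.26 for Hk2 and -0.81 for Ndrg1. Without replicate 1 of both tissues, added after the data were seen, 22, 14, 23 and 18 of the 31 were called at E14.5, in bladder, in urethra and for the interaction, beside 49.1%, 44.8%, 40.9% and 30.5% of all genes, and Ndrg1 was at 1.05 at E14.5.

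With the mesenchymal score as a covariate the E14.5 calls were 3102 genes and 2 of the 31, the E18.5 calls 1 and 0, the bladder ones 647 and 3, and those of the interaction 57 and 0. In that E18.5 fit Pfkp (-0.34), Ldhb (-0.35) and Egln3 (0.23) turned without passing. With an added minimum log2 fold change of 1 the E14.5 calls were 3092 genes and 3 of the 31, the E18.5 calls 3536 and 5, the urethral ones 2567 and 6, and 3217 genes were called in bladder and 2761 for the interaction.

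Scaling by the 7 pan-epithelial genes gave 11833 genes and 19 of the 31 at E14.5, 14 higher and 2 lower of the 31 at E18.5, 25 of the 31 in bladder, 9976 genes in urethra with 4 of the 31 higher and 9 lower, and 12787 genes and 25 of the 31 for the interaction. At E14.5 it turned Gpi1 (-0.47), Aldoa (-0.011), Tpi1 (-0.10), Pgk1 (-0.49), Pgam1 (-0.068), Eno1 (-0.44), Pkm (-0.68), Ldha (-0.29), Ldhb (-0.049), Pdk1 (-0.54) and Egln1 (-0.69). In bladder with stage it turned Hif1a (0.53), and in urethra Hk1 (-0.17), Tpi1 (-0.17), Gapdh (-0.70), Pgk1 (-0.035), Pgam1 (-0.23) and Eno1 (-0.45). For the interaction it turned Slc2a1 (0.97), Gpi1 (0.91), Aldoa (0.61), Tpi1 (0.76), Pgk1 (0.87), Pgam1 (0.84), Eno1 (1.09), Ldha (0.96), Pdk1 (0.66), Egln1 (1.01) and Ankrd37 (1.10). That scaling moves the median of all genes by -0.99 at E14.5, 0.54 in bladder, -0.76 in urethra and 1.29 for the interaction. The cause of these turns beyond that shift was not tested.

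The labels do not say that equal replicate numbers mark a shared litter, and the data did not show it for every pair. The correlations of same-numbered deviations ran from -0.122 to 0.441 over the 4 numbers of E14.5 and from -0.186 to 0.123 over the 3 of E18.5, and not every library correlated best with its own number. With the replicate block 11 of the 31 were called higher and 6 lower at E14.5, with 8 higher, 5 lower at E18.5, 7 and 0 in bladder, 7 and 1 in urethra and 4 and 4 for the interaction, 17, 13, 7, 8 and 8 in all. Of all genes 7680, 5363, 6525, 4687 and 4322 were called in the same order.

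Precision is limited by 3 or 4 pools a group and, for Eno2, Slc2a3 and Pfkfb4, by few reads, and the libraries hold unequal marker levels of other cell types.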
